A study of Mus musculus with 4 samples.

Results

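Striated-muscle-type genes in mouse aortic grafts were followed through 9 genes that are best known from skeletal and heart muscle: Mylk4, Fbxo40, Klhl41, Ldb3, Myom1, Hspb7, Xirp1, Ckm and Des. They are 9 of the 54752 gene IDs in the deposited count table and were found by matching their IDs to mouse gene symbols. They were chosen by their counts in this same comparison, in which most were far lower in ALLO than in ISO grafts, so their differences between the groups are given as a description with no test. The grafts were abdominal aortas sequenced 4 weeks after transplantation, as an ALLO group (allografts in chronic rejection, per the series title) and an ISO group, whose abbreviation is left unexplained in the labels. Each group had 2 libraries (n = 2 per group throughout). The labels give no strain, genotype, age, sex or drug for either group, and leave unsaid if each library is a different animal. The p-values therefore rest on the spread between libraries, part of which may be technical.

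Striated muscle contracts through sarcomeres. In each sarcomere, thin actin filaments are anchored at the Z-disc and thick myosin filaments are cross-linked at the M-band, while the intermediate filament protein desmin ties neighbouring Z-discs together. Chaperones and ubiquitin ligase adaptors keep these filaments folded and replaced, and creatine kinase buffers their ATP. Smooth muscle of the aorta has no sarcomeres. It anchors actin at dense bodies, is switched on by phosphorylation of the myosin light chain, and shares some of its proteins, desmin among them, with striated muscle.

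All 4 libraries were deep, at 17532344 to 20194854 counts, with 19987 to 22171 genes detected. Sex-linked transcripts set 1 library apart: ISO replicate 1 had 10647 Xist counts and 0 Ddx3y counts, whereas in the other 3 libraries Xist did not exceed 8 and Ddx3y was never under 2105. The ISO libraries thus came from different animals, which stays unknown for ALLO. The groups were not balanced for these transcripts, and the part of sex in the differences between ALLO and ISO was not tested. Levels below are CPM, the counts of a gene scaled to library size with a composition correction (TMM), and levels of different genes are compared only as CPM per kilobase of the deposited gene length, which counts all annotated exons and so understates genes that use few of them. In whole tissue, fewer cells of a type and less RNA per cell cannot be told apart.

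Upstream sequence was available from RefSeq (GRCm38.p6) for 8 of the 9 genes, at 10 annotated starts. The 250 bases before each start were searched on both strands for the CArG box, which binds serum response factor (SRF), for the MEF2 site, for the E-box CANNTG bound by factors of the MyoD family, and for the MCAT element CATTCC. A CArG box was found before 3 of the 10 starts (both starts of Ldb3, whose windows overlap and share the match, and Myom1), against 1.47% of 32851 RefSeq promoters of the same length. A MEF2 site was found before 3 starts (Mylk4, 1 start of Fbxo40 and Klhl41), against 2.92% of those promoters. E-boxes stood before 8 of the 10 starts, against 66.2%, and the MCAT element before 0 of 10, against 12.6%. No CArG match overlapped a MEF2 match. Windows with a CArG or MEF2 match are shown, 1 per gene, because these are the promoters in the set that carry letters known from muscle genes; the second Ldb3 window holds the same match as the first and is left out. Each runs 5′ to 3′ on the strand of its gene, in lower case with the match in capitals, and Ldb3 and Myom1 stop short of annotated exons. They lie at chr13:32783965-32784214 (Mylk4, minus strand), chr16:36990468-36990717 (Fbxo40, minus strand), chr2:69669870-69670119 (Klhl41, plus strand), chr14:34588683-34588931 (Ldb3, minus strand) and chr17:71019307-71019520 (Myom1, plus strand).
Mylk4, MEF2 site: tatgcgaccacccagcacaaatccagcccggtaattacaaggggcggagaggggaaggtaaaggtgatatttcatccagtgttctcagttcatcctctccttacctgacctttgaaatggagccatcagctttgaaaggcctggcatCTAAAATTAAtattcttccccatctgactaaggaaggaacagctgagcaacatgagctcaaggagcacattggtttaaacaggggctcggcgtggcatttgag
Fbxo40, MEF2 site: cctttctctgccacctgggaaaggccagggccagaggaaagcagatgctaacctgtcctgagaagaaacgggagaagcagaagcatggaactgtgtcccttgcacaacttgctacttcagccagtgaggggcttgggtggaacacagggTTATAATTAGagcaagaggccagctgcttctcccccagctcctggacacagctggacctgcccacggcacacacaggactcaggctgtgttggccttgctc
Klhl41, MEF2 site: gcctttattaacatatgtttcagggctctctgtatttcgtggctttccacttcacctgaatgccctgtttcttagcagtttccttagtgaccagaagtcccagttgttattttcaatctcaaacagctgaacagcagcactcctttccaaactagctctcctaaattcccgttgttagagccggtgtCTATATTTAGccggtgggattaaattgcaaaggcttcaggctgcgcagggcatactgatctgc
Ldb3, CArG box: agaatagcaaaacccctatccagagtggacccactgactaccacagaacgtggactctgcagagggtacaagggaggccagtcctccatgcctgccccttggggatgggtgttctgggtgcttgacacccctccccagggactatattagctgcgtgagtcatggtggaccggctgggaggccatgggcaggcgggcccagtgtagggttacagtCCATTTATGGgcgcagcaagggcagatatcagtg
Myom1, CArG box: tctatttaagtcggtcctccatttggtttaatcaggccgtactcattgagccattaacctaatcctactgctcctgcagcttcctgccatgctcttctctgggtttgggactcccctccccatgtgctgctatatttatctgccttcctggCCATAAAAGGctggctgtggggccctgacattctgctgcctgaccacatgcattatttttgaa
The matches begin 103 bases before the start in Mylk4, 101 in Fbxo40, 63 in Klhl41, 35 in Ldb3 and 99 in Myom1. They are descriptions of letters, and no binding was measured here.

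The 9 genes together took 0.0162% and 0.0337% of all counts in ALLO grafts and 0.260% and 0.283% in ISO grafts. Both ALLO libraries lay below both ISO libraries for 9 of 9 genes. The same held for 35.4% of the 16498 genes tested, and since this contrast chose the genes nothing is read from their count. Their log2 changes (ALLO over ISO) ran from -8.94 in Mylk4 to -0.72 in Des, with a median of -5.16, beside a median of 0.03 over all genes tested. All 9 passed the filter on low counts. Ckm and Klhl41 did so through the ISO libraries alone, since neither exceeded 2 counts in an ALLO library.

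**Figure D1:**
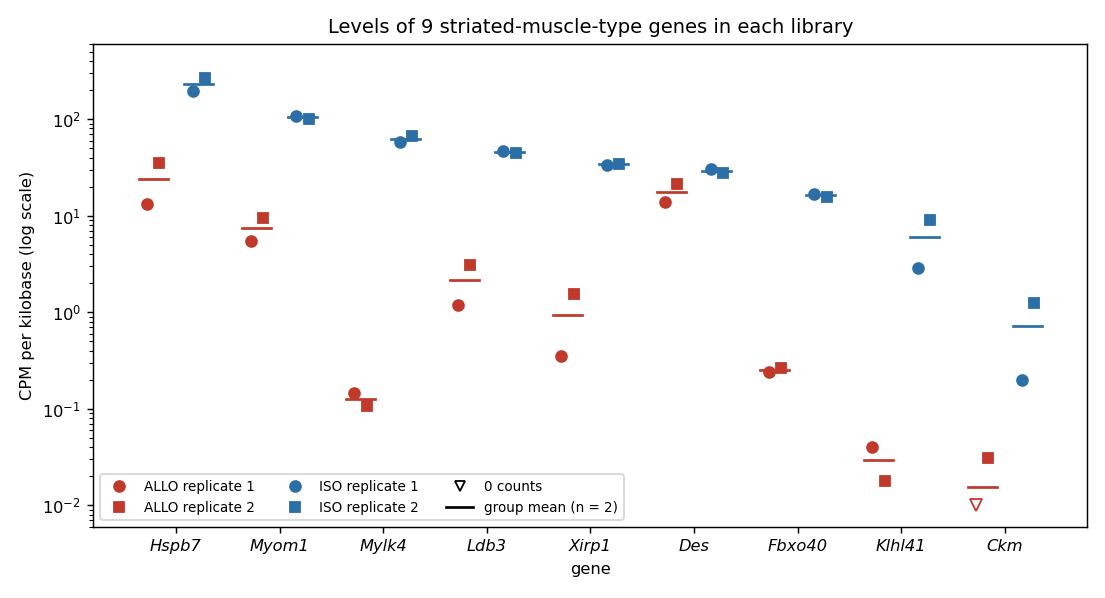
Level of each of the 9 genes in each library, as CPM per kilobase of gene length on a log axis, with red ALLO libraries left of blue ISO libraries, circles for replicate 1, squares for replicate 2, bars for group means (n = 2) and an open triangle for a library with 0 counts. Des has the smallest gap between its groups (13.8 and 21.5 in ALLO, 30.6 and 27.7 in ISO) and Mylk4 the widest of the genes with over 3 counts in ALLO (0.147 and 0.106 in ALLO, 58.4 and 66.8 in ISO).

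Per kilobase, the order of levels in ISO was Hspb7, Myom1, Mylk4, Ldb3, Xirp1, Des, Fbxo40, Klhl41 and Ckm, and no pair of neighbours in that order overlapped between the 2 ISO libraries. Hspb7 stood above 98.8% and 99.3% of the genes tested in ISO replicates 1 and 2, and Myom1 above 97.6% and 97.5%. Ckm, at the other end, stood above 9.4% and 30.9%. The order differed in ALLO, where Hspb7 (13.1 and 35.3 CPM per kilobase) and Des (13.8 and 21.5) overlapped at the top, Ldb3 (1.19 and 3.11) overlapped with Xirp1 (0.352 and 1.53), and Mylk4 stood at rank 7 of the 9 in both libraries.

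The Z-disc is represented by Ldb3, and Xirp1 is described beside it. Ldb3, a PDZ and LIM domain protein that binds alpha-actinin at the Z-disc (ENSMUSG00000021798.14, chromosome 14, 34526603 to 34588682, minus strand, mm10), had 7.25 and 19.0 CPM in ALLO and 289 and 270 CPM in ISO. Its ISO libraries were close and its ALLO libraries differed 2.62-fold, with a mean 21.3-fold lower in ALLO and pairwise folds of 14.2 to 39.9 (log2 change -4.41, and -5.26 without ALLO replicate 2). Xirp1, the actin-binding repeat protein Xin of cell attachment sites (ENSMUSG00000079243.3, chromosome 9, 120013755 to 120023598, minus strand), had 40 and 197 counts in ALLO and 3315 and 3356 in ISO. The level of Xirp1 was 2.06 and 8.94 CPM in ALLO and 194 and 203 CPM in ISO, with pairwise folds of 21.7 to 98.5 and a log2 change of -5.16 (-6.58 without ALLO replicate 2, -4.44 without ALLO replicate 1). ALLO replicate 2 was 4.35 times replicate 1 for Xirp1, the widest ratio within ALLO among the members with counts in both ALLO libraries.

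Around them, 14 of the 22 tested genes in a list of 28 further Z-disc and M-band genes fell in ALLO and 0 rose, against 14.8% lower, 18.4% higher and 33.1% either way among all genes tested (edgeR quasi-likelihood fit, Benjamini-Hochberg adjusted p under 0.05). Their median log2 change was -2.39. Myoz2, a Z-disc protein that binds calcineurin, had 0.308 and 0.454 CPM in ALLO and 39.8 and 71.3 CPM in ISO, a log2 change of -7.15 ± 0.48 (SE, edgeR adjusted p = 0.00247). Tcap, which caps titin at the Z-disc, had 0.514 and 0.999 CPM in ALLO and 44.1 and 74.0 CPM in ISO (log2 change -6.26 ± 0.48, edgeR adjusted p = 0.00319). For both, ISO replicate 2 was the higher ISO library. The alpha-actinin partner Pdlim3 fell 23.9-fold (edgeR adjusted p = 0.00230) and the actin-binding protein gene Nexn 9.66-fold (edgeR adjusted p = 0.00216). Of the other PDZ and LIM relatives of Ldb3, Pdlim5 fell 4.0-fold and Pdlim7 8.14-fold (13.7-fold without ALLO replicate 2). Xirp2, the nearest relative of Xirp1, had 0 and 2 counts in ALLO and 0 and 0 in ISO and was too low to test.

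Myom1 encodes myomesin, which cross-links thick filaments at the M-band (ENSMUSG00000024049.15, chromosome 17, 71002633 to 71126856, plus strand). It had 1126 and 2200 counts in ALLO and 19231 and 17421 in ISO. These are 57.9 and 99.9 CPM in ALLO against 1124 and 1051 CPM in ISO, 13.8-fold lower in ALLO with pairwise folds of 10.5 to 19.4. The other myomesin genes were low. Myom2 had 4 and 6 counts in ALLO and 3 and 0 in ISO, and Myom3 had 0.719 and 0.182 CPM in ALLO and 2.16 and 2.66 CPM in ISO (edgeR adjusted p = 0.0738). Titin, the giant filament on which the M-band is built, was close to undetected, with 96 and 60 counts of Ttn in ALLO and 16 and 44 in ISO over 116825 exonic bases.

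Des, the gene of the intermediate filament protein desmin (ENSMUSG00000026208.9, chromosome 1, 75360329 to 75368579, plus strand), stood apart from the other members. It had 51.9 and 80.6 CPM in ALLO and 115 and 104 CPM in ISO, 1.65-fold lower in ALLO. The groups did not overlap, but their nearest libraries differed by 1.29-fold only, and the log2 change of -0.72 became -1.07 without ALLO replicate 2 and -0.41 without ALLO replicate 1. Other intermediate filament genes varied. Synm, whose product synemin joins desmin filaments, fell 3.70-fold (edgeR adjusted p = 0.00686), and Sync, whose product syncoilin also binds desmin, fell 25.7-fold (edgeR adjusted p = 0.00618), with folds of 54.0 when ALLO replicate 2 was left out and 16.4 when ALLO replicate 1 was. Of the exonic bases of Sync, 27.3% are shared with Rbbp4, which lies opposite, and no source says if reads were assigned by strand, so its value is uncertain. Vim, the gene of vimentin, a filament of mesenchymal cells, had 1820 and 2513 CPM in ALLO and 5716 and 4941 CPM in ISO (log2 change -1.30 ± 0.38, edgeR adjusted p = 0.0545).

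Hspb7, a small heat shock protein of heart and vessel (ENSMUSG00000006221.7, chromosome 4, 141420779 to 141425311, plus strand), had 705 and 2156 counts in ALLO and 9282 and 12205 in ISO. At 36.2 and 97.9 CPM in ALLO against 543 and 737 CPM in ISO it was 9.54-fold lower in ALLO, with pairwise folds of 5.55 to 20.3 and a 2.70-fold gap between the ALLO libraries. Its log2 change was -3.25, and -4.14 without ALLO replicate 2. Klhl41, a Kelch protein that serves as an adaptor of a cullin ubiquitin ligase and stabilises thin filaments (ENSMUSG00000075307.3, chromosome 2, 69670120 to 69684230, plus strand), had 2 and 1 counts in ALLO and 124 and 380 in ISO. The ratio of ISO to ALLO was 207, with a 95% counting interval of 47.9 to 2892 taken on counts halved because both mates of a pair appear to have been counted. The ISO libraries differed 3.16-fold for Klhl41, more than for any other member except Ckm. Fbxo40, an F-box protein of muscle that marks proteins for degradation (ENSMUSG00000047746.14, chromosome 16, 36963460 to 36990467, minus strand), was the steadiest member. It had 1.34 and 1.45 CPM in ALLO and 92.9 and 87.0 CPM in ISO, 64.5-fold lower in ALLO, with pairwise folds confined to 59.9 to 69.5.

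Of 20 related chaperone and ubiquitin ligase genes 14 were tested, and 11 fell and 0 rose. Klhl40 and Klhl31 are among the 11, but they passed the filter on low counts through ISO alone, which fixed their direction. Among all genes tested 14.8% were lower and 18.4% higher. The median log2 change of the list was -2.31 with Klhl40 and Klhl31, which had 0 counts in both ALLO libraries, at their bounds. Among the other small heat shock genes Hspb6 fell 14.7-fold (edgeR adjusted p = 0.00216), Hspb8 6.07-fold (0.00439), Hspb1 12.4-fold (0.00869, and 20.9-fold without ALLO replicate 2) and Cryab, the alpha-B-crystallin gene, 4.06-fold (0.0114). Hspb2 fell 6.25-fold (edgeR adjusted p = 0.0141, 9.35-fold without ALLO replicate 2), but 30.2% of its exonic bases are shared with Cryab on the opposite strand, as are 17.0% of those of Cryab with Hspb2, so both values are uncertain. Hspb3 had 2 and 0 counts in ALLO and 0 in both ISO libraries. In the Kelch family Klhl30 fell 13.6-fold (edgeR adjusted p = 0.00477). Klhl40, of the same family, had 0 counts in both ALLO libraries and 16 and 14 in ISO. That is at least 3.07-fold lower on a floor of 6 counts per library. Klhl31, with 63 and 14 counts in ISO, was at least 7.80-fold lower. The calls of Klhl40 and Klhl31 (edgeR adjusted p = 0.0223 and 0.0294) were lost without ALLO replicate 1 (0.0845 and 0.0734) and without ALLO replicate 2 (0.0786 and 0.0711), and that of Klhl40 also without ISO replicate 2 (0.0998). Klhl40 is uncertain as well because 21.6% of its exonic bases are shared with a gene on the opposite strand. Of the other ubiquitin ligase genes, Fbxo30 fell 8.01-fold (edgeR adjusted p = 0.00216), at 22.0 and 20.4 CPM in ALLO and 169 and 171 CPM in ISO. Fbxo32, the atrophy gene atrogin-1, fell 2.66-fold (edgeR adjusted p = 0.0277), a call lost without ALLO replicate 1 (0.0930), ALLO replicate 2 (0.0989) or ISO replicate 2 (0.0694).

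Mylk4, a member of the myosin light chain kinase family (ENSMUSG00000044951.15, chromosome 13, 32700834 to 32783954, minus strand), had the largest change of the 9. It had 22 and 18 counts in ALLO and 7678 and 8513 in ISO. The CPM was 1.13 and 0.817 in ALLO against 449 and 514 in ISO, 494-fold lower in ALLO with pairwise folds of 397 to 629. Per kilobase it stood above 4.4% and 3.2% of the genes tested in ALLO and above 95.4% and 96.1% in ISO. Both of its tested relatives fell. Mylk2, the light chain kinase of skeletal muscle, fell 82.0-fold, at 0.308 and 1.45 CPM in ALLO and 61.0 and 83.4 CPM in ISO (edgeR adjusted p = 0.00485), and its fold was 228 when ALLO replicate 2 was left out and 48.5 when ALLO replicate 1 was. Mylk, which encodes the kinase of smooth muscle, fell 7.33-fold (edgeR adjusted p = 0.00366), and Mylk3, the cardiac relative, was too low to test at 24 and 2 counts in ALLO and 2 and 8 in ISO. In ISO the mean level per kilobase was 62.6 CPM for Mylk4, 24.5 for Mylk2 and 122 for Mylk. Of 10 genes for light chain kinases, light chains and the myosin phosphatase 9 were tested. Of these 8 fell and 0 rose (median -3.29), against 14.8% lower and 18.4% higher among all genes tested. Those that fell included Ppp1r12b and Ppp1r12a, the targeting subunits of myosin phosphatase, at 11.3-fold (edgeR adjusted p = 0.00395) and 7.49-fold (0.00421). Mylk, Myl9, Ppp1r12b and Ppp1r14a are also among the smooth muscle contractile genes below, so these lists overlap.

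Ckm, the muscle creatine kinase gene (ENSMUSG00000030399.2, chromosome 7, 19404776 to 19422841, plus strand), was barely detected. It had 0 and 2 counts in ALLO and 10 and 60 in ISO. The log2 change was -5.28, and -4.41 without ALLO replicate 1. Without ALLO replicate 2 the ALLO library left had 0 counts, which gives a bound of at least 6.82-fold lower on the floor of 6 counts. The ratio of ISO to ALLO was 43.1 with a 95% counting interval of 7.25 to 1751, the ISO libraries differed 6.19-fold, and 15.5% of its exonic bases are shared with a gene on the opposite strand. The creatine kinase of brain and smooth muscle, Ckb, was far above it per kilobase, with a mean of 98.5 CPM in ISO for Ckb and 0.722 for Ckm. Ckb fell 2.60-fold (edgeR adjusted p = 0.0494), a call lost without ALLO replicate 1 (0.0553), ISO replicate 1 (0.0619) or ISO replicate 2 (0.103), and the fold was 4.03 without ALLO replicate 2. The mitochondrial creatine kinase genes Ckmt1 and Ckmt2 had 4 and 26 (Ckmt1) and 0 and 0 (Ckmt2) counts in ALLO, and 0 in both ISO libraries.

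Of 16 further genes of muscle energy supply, Ckb among them, 12 were tested. Of these 8 fell and 0 rose, with a median of -1.75, against 14.8% lower and 18.4% higher among all genes tested. The number that fell was 5 without ISO replicate 1. Pygm, the muscle glycogen phosphorylase, had 6.47 and 6.26 CPM in ALLO and 95.1 and 96.8 CPM in ISO, 15.1-fold lower (edgeR adjusted p = 0.00214). Phkg1, the catalytic subunit of phosphorylase kinase in muscle, fell 6.95-fold (edgeR adjusted p = 0.00485), Pfkm, the muscle phosphofructokinase, 4.37-fold (0.00786) and Fabp3, a fatty acid carrier of heart and muscle, 18.8-fold (0.00345). Of the exonic bases of Fabp3, 19.6% are shared with genes on the opposite strand, and 10.2% of those of Pfkm with a gene on its own strand, so both values are uncertain. The myoglobin gene Mb had 0 counts in every library, but 31.9% of its exonic bases are shared with genes on the opposite strand.

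**Figure D2:**
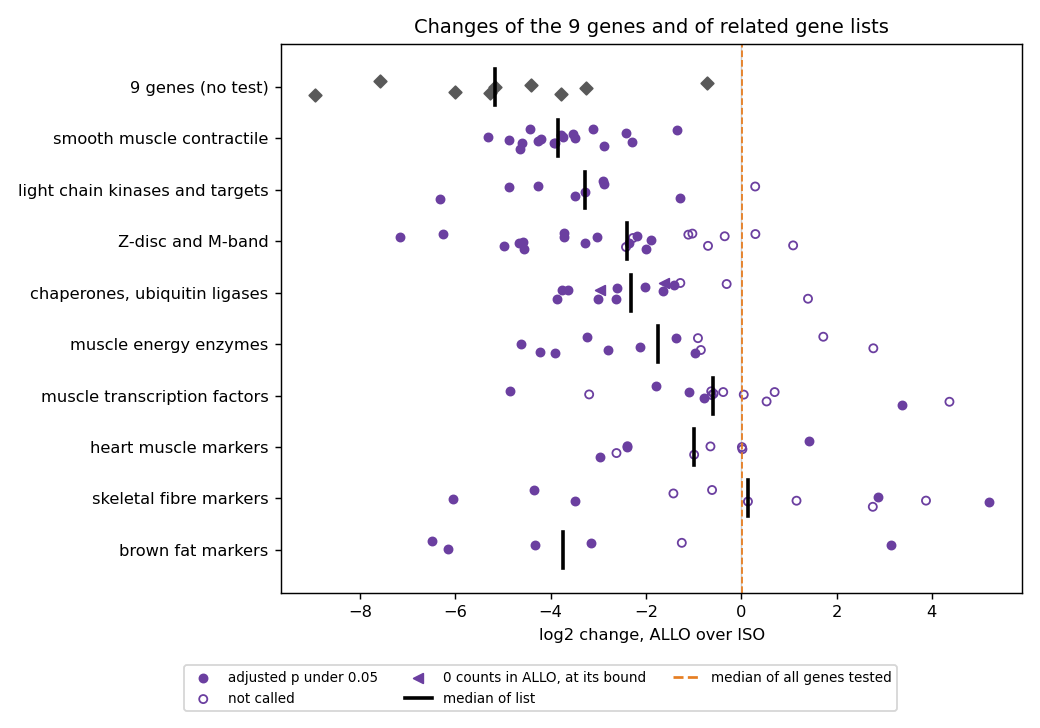
Log2 change of ALLO over ISO for the 9 genes (grey diamonds, no test) and for the tested members of related gene lists, with filled circles for edgeR adjusted p under 0.05, open circles for genes not called, left-pointing triangles for the 2 genes with 0 counts in ALLO, drawn at their bound, black bars for list medians and a dashed line for the median of all genes tested (0.03). The median was -5.16 for the 9 genes, -3.85 for smooth muscle contractile genes and 0.14 for skeletal fibre markers.

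The name of the set was set against markers of the cells that could carry it. The main myosin and actin genes of skeletal fibres were at 0 or near it in ISO. Of 22 skeletal fibre markers, 5 and 9 had 0 counts in ALLO replicates 1 and 2, and 9 and 11 in ISO replicates 1 and 2. The myosin heavy chain genes Myh1, Myh2 and Myh4 had 6, 2 and 2 counts in ALLO replicate 1. They had 0 in ALLO replicate 2 and in both ISO libraries. The myosin light chain gene Mylpf had 39 and 18 counts in ALLO and 8 and 13 in ISO and was not called (edgeR adjusted p = 0.290). Skeletal actin, Acta1, had 0 and 9 counts in ALLO and 22 and 6 in ISO. Tnnt3, the fast troponin T, had 32 and 23 counts in ALLO and 29 and 40 in ISO, and the calcium pump gene Atp2a1 25 and 18 in ALLO and 1 and 4 in ISO. Of the exonic bases of Atp2a1, 21.9% are shared with a gene on the opposite strand, so its value is uncertain. The myoblast factors Myod1, Myf5 and Myog and the satellite cell factor Pax7 had 0 counts in all 4 libraries, as did 6 of the 8 genes of that list. At 0 counts the floor is 6 counts, or 3 read pairs, per library, so these were not detectable at this depth. Such floors and the counting intervals cover counting error only.

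Some skeletal and heart muscle genes did appear in ISO. The summed level of the skeletal list was 29.2 and 18.1 CPM in ALLO and 57.6 and 102 CPM in ISO. In ISO most of it came from Casq1, the calcium store protein calsequestrin, with 0.925 and 0.726 CPM in ALLO and 36.1 and 73.8 CPM in ISO (log2 change -6.05 ± 0.49, edgeR adjusted p = 0.00338). Mybpc2, a myosin-binding protein of fast fibres, fell 20.4-fold (edgeR adjusted p = 0.0110), and its fold was 49.3 when ALLO replicate 1 was left out and 12.6 when ALLO replicate 2 was. Tnnt1, the slow troponin T, fell 11.2-fold (edgeR adjusted p = 0.0238), a call lost without ISO replicate 2 (0.0567), and its fold was 26.2 when ALLO replicate 1 was left out and 6.92 when ALLO replicate 2 was. Of the 11 tested, 3 fell and 2 rose, against 14.8% lower, 18.4% higher and 33.1% either way among all genes tested. Those that rose were Neb, the thin filament ruler nebulin, at 7.37-fold (edgeR adjusted p = 0.0131), and the calcium channel gene Ryr1, at 65 and 80 counts in ALLO and 3 and 0 in ISO (0.0182), a call lost without either ALLO library (0.0566 without replicate 1, 0.0569 without replicate 2).

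Of 18 heart muscle markers 9 were tested, and 2 fell and 1 rose. Among all genes tested 14.8% were lower, 18.4% higher and 33.1% either way. The summed levels of the heart list were 27.3 and 29.1 CPM in ALLO and 113 and 132 CPM in ISO. Ryr2, a calcium release channel also found in smooth muscle, made up most of the ISO level and fell 7.86-fold (edgeR adjusted p = 0.00493). The cardiac actin gene Actc1 fell 5.25-fold (edgeR adjusted p = 0.0482), a call lost without ALLO replicate 1 (0.0968), ALLO replicate 2 (0.154) or ISO replicate 2 (0.240), and its fold was 2.76 without ISO replicate 2. Tnni3, cardiac troponin I, rose 2.67-fold (edgeR adjusted p = 0.0365) and was not called when any 1 library was left out (0.0698 to 0.143). Tnnt2, cardiac troponin T, had 47 and 7 counts in ALLO and 143 and 97 in ISO and was not called (edgeR adjusted p = 0.104). The natriuretic peptide gene Nppa had 0 counts in both ALLO libraries and 0 and 1 in ISO. Its value is uncertain, since 61.5% of its exonic bases are shared with a gene on the opposite strand. The cardiac myosin gene Myh6 had 22 and 10 counts in ALLO and 2 and 24 in ISO.

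**Figure D3:**
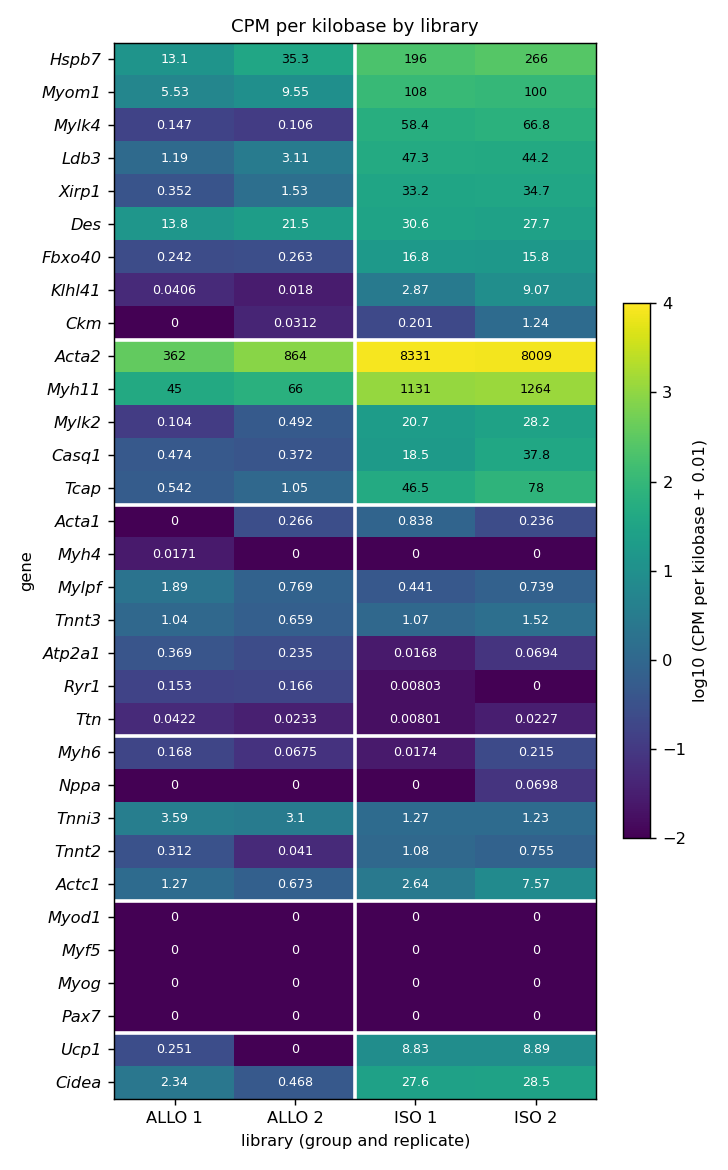
CPM per kilobase in each library, ALLO left of ISO, printed in each cell and coloured on a log10 scale, for the 9 genes (top block), smooth muscle and other muscle genes present in ISO, skeletal fibre markers with Ttn, heart muscle markers, myoblast factors and brown fat markers. Myod1, Myf5, Myog and Pax7 are at 0 in all 4 libraries, and Myh4 is at 0 in both ISO libraries.

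Smooth muscle markers were abundant. All 18 contractile genes fell (18 of 18 tested, 0 rose, median -3.85), against 14.8% lower and 18.4% higher among all genes tested. Their summed levels were 2426 and 4210.0 CPM in ALLO and 46860.0 and 47470.0 CPM in ISO. Synpo2, an actin-binding protein of dense bodies and the Z-disc, fell 25.1-fold (edgeR adjusted p = 0.00216) and the integrin gene Itga8 39.8-fold (0.00319). Tagln, an actin-binding protein gene, fell 13.9-fold (edgeR adjusted p = 0.00284), but 67.9% of its exonic bases are shared with genes on the opposite strand, so the value is uncertain. Of the 9 genes, Mylk4, Klhl41, Fbxo40, Xirp1 and Ldb3 had log2 changes beyond the smooth muscle median. Myom1 (-3.79), Hspb7 (-3.25) and Des (-0.72) had smaller ones. Without ALLO replicate 2 Myom1 was at -4.23 and Hspb7 at -4.14, and without ALLO replicate 1 Ldb3 was at -3.85. The smooth muscle median of -3.85 is the value with all 4 libraries and was not recomputed with a library left out. Acta2, a smooth muscle gene on the list, went from -3.74 to -4.49 without ALLO replicate 2 and to -3.21 without ALLO replicate 1. The side of the smooth muscle median on which Myom1, Hspb7 and Ldb3 lie was therefore not determined. Ckm could not be placed, since its counting interval begins at 7.25-fold, short of that median. Mylk4, Klhl41 and Fbxo40 lay beyond Itga8, the most changed smooth muscle gene on the list (-5.32). Set against smooth muscle actin per kilobase within each library, the level of Mylk4 per 1000 of Acta2 was 0.406 and 0.123 in ALLO and 7.01 and 8.34 in ISO. The same ratio for Hspb7 was 36.1 and 40.9 in ALLO and 23.5 and 33.2 in ISO, and for Des 38.2 and 24.9 in ALLO and 3.67 and 3.46 in ISO. Myom1 had 15.3 and 11.1 per 1000 of Acta2 in ALLO and 12.9 and 12.6 in ISO, and Xirp1 0.972 and 1.77 in ALLO and 3.98 and 4.33 in ISO. Acta2 itself fell 13.3-fold, with a 2.385-fold gap between the ALLO libraries. Myh11, another smooth muscle gene on the list, fell 21.6-fold with a 1.466-fold gap, so a different reference could sort the genes otherwise. Relative to Acta2, Mylk4, Fbxo40, Ldb3 and Xirp1 were lower in both ALLO libraries than in both ISO libraries. Hspb7 and Des were higher, and the groups overlapped for Myom1. Klhl41 had 0.112 and 0.0208 per 1000 of Acta2 in ALLO and 0.344 and 1.13 in ISO. Its ALLO values rest on 2 and 1 counts, and those of Ckm on 0 and 2, all under the floor of 6. Klhl41 and Ckm were therefore not placed relative to Acta2. Fbxo40 had 0.669 and 0.305 per 1000 of Acta2 in ALLO and 2.02 and 1.97 in ISO, and Ldb3 3.28 and 3.60 in ALLO and 5.68 and 5.52 in ISO. Summed per kilobase, the 9 genes came to 4.67% and 4.63% of the 18 smooth muscle genes in ALLO and 2.89% and 3.41% in ISO. None of these differences between genes was tested.

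Of 8 brown fat markers 6 were tested, and 4 fell and 1 rose, against 14.8% lower and 18.4% higher among all genes tested. Ucp1 and Slc27a2, which fell, passed the filter on low counts through ISO alone, and Lhx8, which rose, through ALLO alone. The summed level of the list was 10.0 and 7.17 CPM in ALLO and 142 and 111 CPM in ISO. The thyroid hormone activating enzyme gene Dio2 fell 90.6-fold (edgeR adjusted p = 0.00216), the lipid droplet gene Cidea 20.0-fold (0.0130; 57.9 when ALLO replicate 1 was left out and 11.9 when ALLO replicate 2 was). The uncoupling protein gene Ucp1 had 8 and 0 counts in ALLO and 247 and 241 in ISO (edgeR adjusted p = 0.0115), and its fold was 34.5 without ALLO replicate 2. The fatty acid transporter gene Slc27a2 had 4 and 3 counts in ALLO and 40 and 13 in ISO (edgeR adjusted p = 0.0472), a call lost when any 1 library was left out (0.0723 to 0.421), and 11.2% of its exonic bases are shared with a gene on the opposite strand. The homeobox gene Lhx8 rose 8.94-fold (edgeR adjusted p = 0.0111), at 4.37 and 4.13 CPM in ALLO and 0.468 and 0.483 CPM in ISO. Elovl3 had 0 counts in every library, and Zic1 had 0 and 2 in ALLO and 14 and 0 in ISO. The part of fat tissue in the levels of the 9 genes was not tested.

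The factors that act on CArG boxes and MEF2 sites were also measured. Their counts stand beside 14.8% lower, 18.4% higher and 33.1% either way among all genes tested. Of 15 muscle transcription factor genes 14 were tested, and 4 fell and 1 rose (median -0.60), with 2 lower without ALLO replicate 2 or without ISO replicate 2, and 0 higher without ALLO replicate 1 and 2 without ISO replicate 1. Myocd, the coactivator myocardin that works with SRF, had 8.58 and 9.53 CPM in ALLO and 187 and 335 CPM in ISO, a log2 change of -4.85 ± 0.38 (edgeR adjusted p = 0.00319). Srf itself fell 3.46-fold (edgeR adjusted p = 0.0175). Mef2c fell 2.15-fold (edgeR adjusted p = 0.0226, lost without ALLO replicate 2 at 0.0640 or ISO replicate 2 at 0.0910), and Mef2d 1.71-fold (0.0321, lost when any 1 library was left out, at 0.0539 to 0.216). Mef2b rose 10.5-fold (edgeR adjusted p = 0.0192), a call lost without ALLO replicate 1 (0.0789). Mrtfa and Mrtfb, coactivators of SRF that respond to actin, had log2 changes of 0.53 and 0.05 and were not called (edgeR adjusted p = 0.0985 and 0.838).

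Within groups the members differed in which library was higher. ALLO replicate 2 was above ALLO replicate 1 for 7 of the 9 genes, by up to 4.35-fold in Xirp1, while Mylk4 (0.723) and Klhl41 (0.442, from 2 and 1 counts) lay the other way. For the 18 smooth muscle genes the same ratio had a median of 1.65 and ranged from 0.878 to 3.77, with 17 above 1. In ISO the ratio of replicate 2 to replicate 1 was between 0.907 and 1.14 for 6 members (Mylk4, Fbxo40, Ldb3, Myom1, Xirp1 and Des), 1.36 for Hspb7, 3.16 for Klhl41 and 6.19 for Ckm, beside a median of 1.02 for smooth muscle genes. The ISO libraries also differ in Xist and Ddx3y, and the part of sex in these gaps cannot be told apart from other differences between them.

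**Figure D4:**
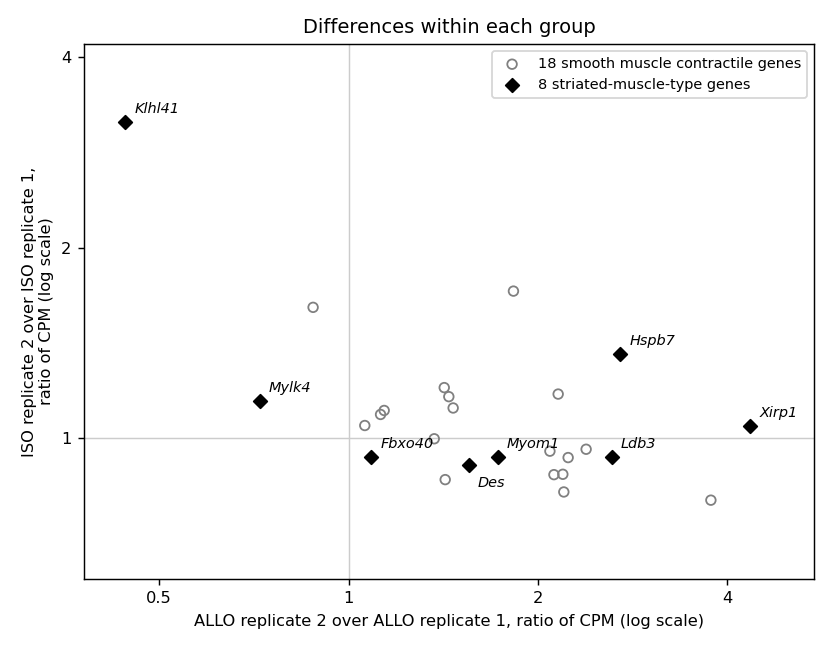
Ratio of replicate 2 to replicate 1 in ALLO (horizontal) and in ISO (vertical), as ratios of CPM on log axes, for 8 of the 9 genes (diamonds; Ckm had 0 counts in ALLO replicate 1) and 18 smooth muscle contractile genes (open circles). Klhl41 lies apart at 0.442 and 3.16, and Xirp1 has the highest ALLO ratio, 4.35.

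The genes outside the set whose profile over the 4 libraries lay closest to the mean profile of the 9 (Euclidean distance between log2 CPM values centred on each gene's mean) were Ankrd45 (distance 0.207), Lancl3 (0.229), Pdlim3 (0.312), Pitpnm3 (0.329) and Sntg2 (0.343). The members lay at 0.650 (Ldb3) to 4.17 (Mylk4) and 4.0 (Des). Pdlim3 is the only one of the 5 in the lists above. Lancl3 had 1.23 and 1.86 CPM in ALLO and 38.2 and 60.1 CPM in ISO, 31.8-fold lower, and Sntg2, a syntrophin gene, had 1.13 and 1.63 CPM in ALLO and 39.2 and 58.0 CPM in ISO, 35.2-fold lower.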

How the data were processed

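Whole RNA of 4 mouse aortic graft libraries was depleted of ribosomal RNA and sequenced, per the labels' protocols. The authors deposited raw counts per gene with gene lengths in bases, which served only to scale levels. The submitters' processing notes name featureCounts, Subread 1.6.4, DESeq2 1.30.0, R 4.0.3 and mm10. The aligner, annotation release, strand setting and treatment of multi-mapped reads are not stated in any source used here. Groups came from sample titles.

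IDs were named from GENCODE M21 (54723 of 54752). Among genes with 1 to 20 counts, 68.0% to 74.6% had even counts, the pattern of pairs counted by both mates, so a floor of 6 counts per library was used. filterByExpr (minimum count 10) left 16498 genes, fitted with edgeR 4.0.16 (TMM, glmQLFit, glmQLFTest, group only, R 4.3.3) and adjusted by Benjamini-Hochberg. The filter can pass a gene through ALLO or ISO alone, and the direction of such a gene is then fixed by the filter. Among called list genes this held for Klhl40, Klhl31, Myoz2, Synpo2l, Cox7a1, Ucp1 and Slc27a2, lower in ALLO. It also held for Ryr1, Mef2b and Lhx8, higher in ALLO. The fit was tested on simulated data. Replicates differed beyond sampling noise (chi-square over degrees of freedom 139 in ALLO and 41.6 in ISO). Counting intervals are 95% Clopper-Pearson intervals on halved counts.

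The members and the 10 lists of 159 related genes were chosen with earlier results of these data known. Named were the members, their family relatives, up to 4 lower and 2 higher called genes per list with the smallest adjusted p, defining markers and the 5 nearest profiles. Ttn, Mb, Mrtfa, Mrtfb, Acta2, Myh11, Cox7a1, Synpo2l and Fhl1, and the myosin genes Myh1 and Myh2, were added after their values were seen. Alternatives were other scalings, filters and tests (DESeq2 1.42.0, limma 3.58.1), a replicate block, halved counts and each library left out. Python 3.11.15 and matplotlib 3.10.9 were used for the rest.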

Additional observations from a re-analysis of the deposited data

How the results depend on the processing

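With 2 libraries per group, calls on single genes often hung on 1 library, and depth limits Klhl41, Ckm, Klhl40 and Klhl31, which had at most 3 counts in ALLO. Leaving out 1 library at a time gave 3603 to 4651 called genes in all (5469 with all 4 libraries; 1512 to 2245 lower, against 2437), a member median of -6.06 to -4.41 (against -5.16; -5.26 in place of -6.06 with Ckm, at 0 counts there, at its bound), 5 to 10 energy genes lower (against 8), 2 to 3 transcription factor genes lower (against 4) and 0 to 2 higher (against 1), 1 to 2 heart markers lower (against 2) and 0 to 0 higher (against 1), 1 to 2 skeletal markers higher (against 2) and 2 to 5 genes higher over all lists (against 5). The DESeq2 Wald test gave 4 heart markers lower, 1 energy gene higher and 2 transcription factor genes higher. No filter gave 4 heart markers lower and 2 transcription factor genes higher. Scaling by library size alone gave 1 heart marker lower and 2 transcription factor genes higher, moved the median of all genes by 0.19 (log2), and raised the share of calls that were higher to 65.5%, against 55.4%. A mean count of 10 or more gave 1 heart marker lower, and halved counts or DESeq2 size factors gave 2 transcription factor genes higher. Over the lists, 58 to 71 genes were lower in every alternative, against 68. No member changed sign in any alternative. Without ALLO replicate 2 the change was -6.58 for Xirp1, -5.26 for Ldb3 and -4.14 for Hspb7, without ALLO replicate 1 it was -4.41 for Ckm, and without ISO replicate 2 it was -6.54 for Klhl41, while Ckm no longer passed the filter there or with halved counts. Same-numbered libraries deviated from their group means with a correlation of 0.10, and nothing in the labels pairs them. With the replicate block 0 heart markers were higher, and 4873 genes were called in all.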

Other observations

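Among Z-disc and M-band genes chosen after their values were seen, Synpo2l, a striated muscle relative of Synpo2, fell 31.9-fold, at 0.514 and 0.454 CPM in ALLO and 12.6 and 18.2 CPM in ISO (edgeR adjusted p = 0.00340). Fhl1, a LIM protein gene of striated muscle, had 109 and 142 CPM in ALLO and 3413 and 2519 CPM in ISO, 23.6-fold lower (edgeR adjusted p = 0.00344).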
